A study of Homo sapiens with 26 samples.

Results

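Actin stress fiber and tropomyosin genes were followed by RNA-seq in cell lines of esophageal squamous cell carcinoma (ESCC). The 10 genes were the tropomyosins TPM1, TPM2, TPM3 and TPM4, the alpha-actinins ACTN1 and ACTN4, the transgelins TAGLN and TAGLN2, the myosin light chain gene MYL9 and the smooth muscle actin gene ACTA2. They were 10 of 26485 gene symbols in each table. They were taken by symbol, and the set was chosen from the normalised TPM4 values, which had been seen to be much lower under depletion of BRDT in KYSE180 and TE6 cells. The values of all members in these 2 comparisons are given as a description, without a test.

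The series examined BRDT, a bromodomain protein that is normally made in the testis, and ΔNp63, the p63 form of squamous cells, which the gene TP63 encodes. In total, 26 libraries formed 11 groups in 5 separately normalised tables. KYSE180 cells received the control siRNA siCont or siBRDT, an siRNA against BRDT (3 libraries each), and in a separate experiment siCont or siTP63, an siRNA against TP63 (2 libraries each). TE6 cells received siCont, siBRDT or siTP63 in 1 experiment (2 libraries each), so both TE6 comparisons share their control libraries. KYSE150 cells, which the study treats as lacking BRDT of their own, received siCont or siTP63 (2 libraries each). In a separate experiment they were transfected to overexpress BRDT (BRDT-OE) or, per the study, with an empty vector as its control (3 libraries each). All 3 are established cell lines. The siRNA libraries were made 48 h after transfection, and the time for the BRDT-OE experiment is not given in the sources used here. Which of the siRNAs listed against each gene the libraries received is not given in the sources used here. Whether the libraries of a group came from separate cultures is not given either, so p-values measure only the spread between these libraries.

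Tropomyosins are coiled-coil proteins that lie end to end along actin filaments and set which other proteins can bind them. Alpha-actinins cross-link filaments and anchor stress fibers at adhesions, transgelins bind and bundle actin, MYL9 is the regulatory light chain of myosin II, and ACTA2 is the actin of smooth muscle and of contractile fibroblasts. Together with non-muscle myosin these proteins build the contractile bundles of migrating and adherent cells. Many of these genes are known targets of serum response factor (SRF) and its actin-sensing cofactors, which bind a CArG box.

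Values below are read counts of a gene that were divided by the size factor of their library ("normalised values"). Library totals ranged from 7582089 to 19372441 reads. Of the 6 squamous markers, KRT5 and DSP were read in every library at 1084 to 72460 and 836 to 8933 reads. TP63 had 76 to 13138 reads, DSG3 206 to 2986, KRT14 13 to 29945 and KRT6A 50 to 38921. In KYSE150, KRT14 had at most 260 reads and KRT6A at most 435. With siTP63 in KYSE150 they had 13 to 23 and 50 to 129, and KRT14 had 60 to 117 with siTP63 in TE6. Of the 7 smooth muscle markers, DES had at most 2 reads in any library, ACTG2 at most 8, MYOCD at most 10, CNN1 at most 20, LMOD1 at most 29 and MYH11 10 to 63, while SMTN, which other cells also express, had 139 to 1281. Of the 6 fibroblast markers, DCN had at most 8 reads, PDGFRB 16, LUM 43, COL3A1 101 and COL1A2 162, while COL1A1 had 38 to 1164. COL1A2 was read mainly in the siBRDT experiment in KYSE180, at 117 to 162 reads with siCont and 76 to 149 with siBRDT. All other libraries, among them those of the siTP63 experiment in KYSE180, had at most 3 COL1A2 reads. The reason was not tested. Of the blood and vessel markers, PTPRC had at most 4 reads and PECAM1 8. CDH5, an endothelial cadherin gene, had 62 to 174 reads in the KYSE150 siTP63 libraries, 6 to 13 in their siCont libraries and at most 9 elsewhere, and its part in the results of that experiment was not tested. In the KYSE150 siTP63 experiment, same-numbered libraries deviated from their groups in opposite directions, as given below. The targeted genes followed their labels. BRDT was lower under siBRDT by 2.75 ± 0.12 (SE) on the log2 scale in KYSE180 and by 2.23 ± 0.16 in TE6, and BRDT-OE raised it by 10.6 ± 0.23. In the KYSE150 siTP63 experiment, normalised BRDT values were 34.6 ± 37.2 (SD, n = 2) with siCont, so these libraries differed widely. With siTP63 they were 5.3 ± 7.5. The log2 change of TP63 under siTP63 was -1.70 ± 0.14 in KYSE180, -4.45 ± 0.12 in TE6 and -2.34 ± 0.26 in KYSE150, the last at an adjusted p of 0.082. TP63 itself was also lower under siBRDT, by 0.58 ± 0.07 in KYSE180 and 1.15 ± 0.12 in TE6.

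Because CArG boxes are a shared feature of this gene class, the members' promoter windows in RefSeq (GRCh38.p14, 250 bases before to 50 after each start) were searched for it on both strands. The table held 19 windows for 8 members, all but TAGLN and MYL9. Only the exact form CCWWWWWWGG was counted, where W is A or T. A box with any other base inside was not counted, so a window without a match may still hold one. A CArG box of this exact form stood in 2 of the 19 windows, 1 of TPM4 and 1 of ACTN1, against 1.29% of all 35116 windows. The second motif searched, CATTCC on either strand, which is the binding sequence of TEAD factors, stood in 2 of the 19 windows (1 of ACTN1, 1 of ACTA2) and in 14.0% of all windows. The matches describe these letters in these windows and are no evidence of binding. The TPM4 and ACTN1 stretches are shown because they come from the 2 windows with a CArG box. Whether the box bears on the expression of these genes was not tested. The first is chr19:16067307-16067533 on the plus strand and the second chr14:68977655-68977816 on the minus strand. Each ends upstream of its start site and leaves out annotated untranslated exons. Capitals mark the CArG box, which begins at position -173 from the start site in TPM4 and at -171 in ACTN1.
TPM4: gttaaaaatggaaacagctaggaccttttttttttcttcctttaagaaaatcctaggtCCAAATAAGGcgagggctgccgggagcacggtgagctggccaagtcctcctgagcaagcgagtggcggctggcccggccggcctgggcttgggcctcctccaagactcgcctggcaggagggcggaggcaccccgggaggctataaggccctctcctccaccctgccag
ACTN1: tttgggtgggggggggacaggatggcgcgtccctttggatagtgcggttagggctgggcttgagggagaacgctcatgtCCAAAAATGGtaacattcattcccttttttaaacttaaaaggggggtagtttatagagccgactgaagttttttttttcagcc

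TPM4 (ENSG00000167460.17, chr19:16067021-16103002 on hg38) encodes the tropomyosin best known from non-muscle stress fibers. In KYSE180 it had normalised values of 3807, 3897 and 3729 with siCont and 1119.8, 1197 and 1131 with siBRDT. In TE6 the values were 2199 and 2239 with siCont and 354 and 485 with siBRDT. In both lines the groups lay far apart, and the siCont mean was 3.32 times the siBRDT mean in KYSE180 and 5.29 times in TE6. These are the values that chose the gene set, with log2 differences of -1.73 ± 0.06 and -2.42 ± 0.14. In bulk RNA, fewer cells of a type and less RNA per cell cannot be told apart.

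**Figure D1:**
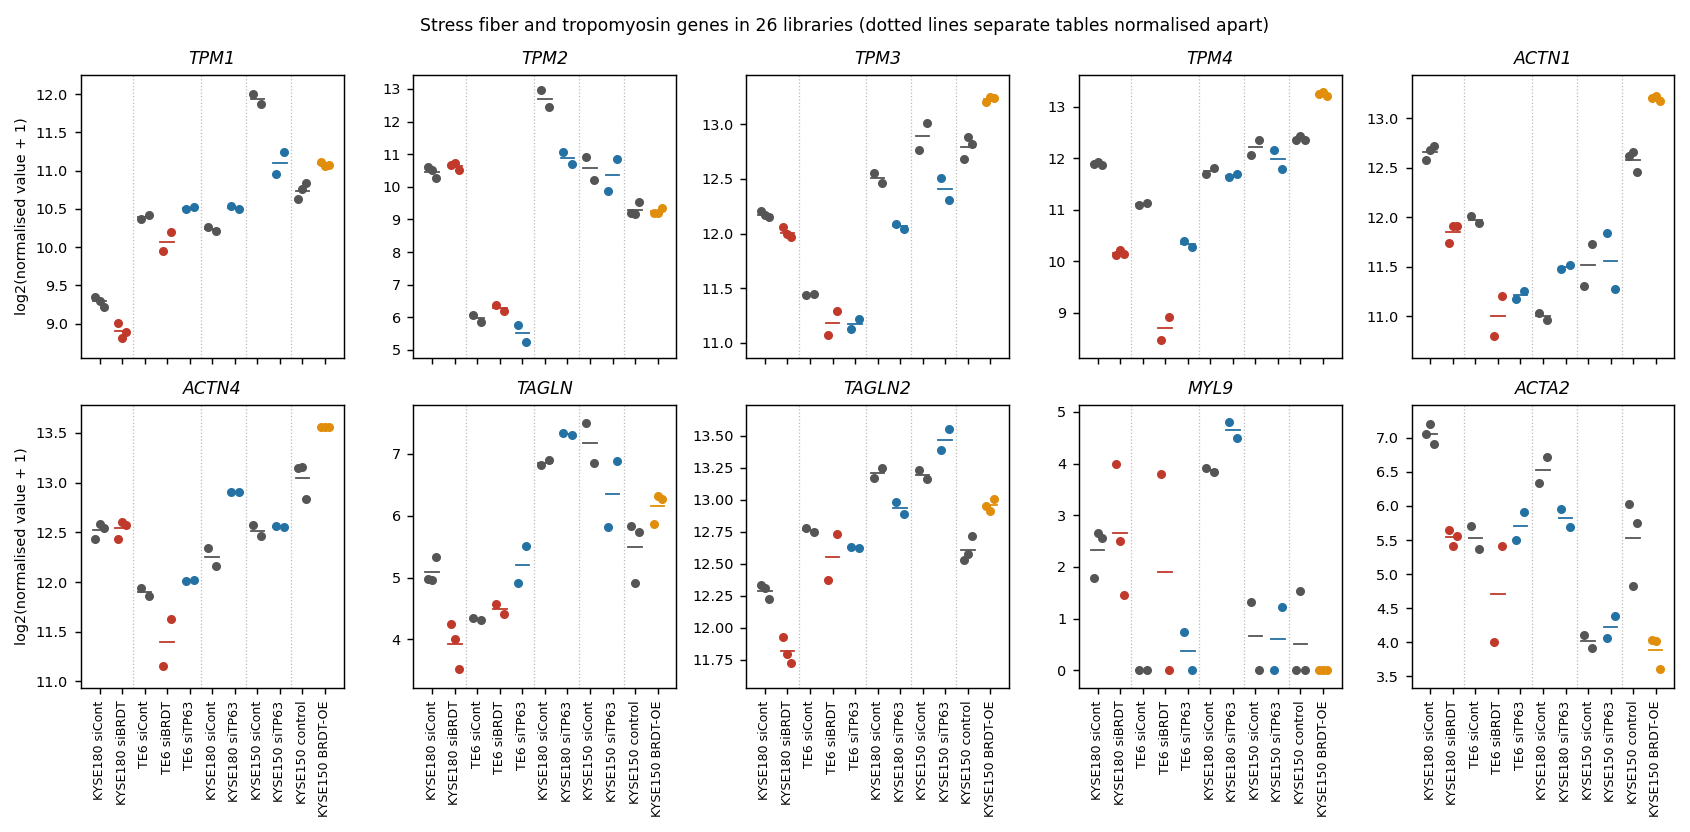
Values of the 10 genes in each of the 26 libraries, on the scale log2(normalised value + 1), 1 point per library, with horizontal lines for group means and dotted lines between tables that were normalised apart. TPM4 is lower in all siBRDT libraries than in their siCont libraries and higher in the 3 BRDT-OE libraries (9492 to 9997 normalised values) than in their controls (5241 to 5557).

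In order to see TPM4 outside the siBRDT comparisons, the siTP63 and BRDT-OE experiments were tested. The BRDT-OE experiment and the siTP63 experiments in KYSE180 and KYSE150 share no library with the comparisons that chose the genes. Under BRDT-OE in KYSE150, TPM4 rose from 5264, 5557 and 5241 in the control libraries to 9699, 9997 and 9492. No BRDT-OE library overlapped a control library, and the change was 0.86 ± 0.07 on the log2 scale (adjusted p = 7.5e-06, n = 3 against 3), a 1.82-fold difference of the means. It held in all 14 alternatives, which gave log2 changes of 0.74 to 0.89. Under siTP63 in TE6, TPM4 fell from 2199 and 2239 to 1339 and 1243, a log2 change of -0.78 ± 0.14 (adjusted p = 4.4e-04). That comparison uses the same siCont libraries as siBRDT in TE6, so its values and those of the other members in TE6 are not independent of the choice of genes.

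The siTP63 response of TPM4 was different in KYSE180. There, values were 3336 and 3592 with siCont and 3185 and 3315 with siTP63, with a log2 difference of -0.09 ± 0.14 that missed the threshold (adjusted p = 0.60). The sign of this small difference turned with the scaling, to 0.10 with libraries rescaled to equal upper quartiles and to 0.43 with equal read totals (adjusted p = 0.0049). The difference between the lines itself, KYSE180 minus TE6, was 0.69 ± 0.14 on the log2 scale (adjusted p = 3.6e-04), and it held in all 14 alternatives, with values of 0.64 to 1.22. In KYSE150, siCont libraries had 4308 and 5255 and siTP63 libraries 4604 and 3557, so the groups overlapped (log2 difference -0.23 ± 0.25, adjusted p = 0.67).

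TPM1 (ENSG00000140416.25, chr15:63042620-63071915), which makes both muscle and non-muscle tropomyosins, moved less. With siBRDT it was slightly lower in every library, at 512, 449 and 472 against 653, 628 and 594 in KYSE180 and at 990.5 and 1168 against 1319.5 and 1373 in TE6. BRDT-OE libraries had 2213, 2129 and 2157 against 1576, 1731 and 1823, a log2 difference of 0.34 ± 0.07 with an adjusted p of 0.0029, which lay under the fold-change limit of 0.5. With siTP63 it was at 1488 and 1441 against 1224 and 1189 in KYSE180 (log2 difference 0.28 ± 0.14, adjusted p = 0.083) and at 1451 and 1475 against 1319.5 and 1373 in TE6 (0.12 ± 0.11, adjusted p = 0.38). In KYSE150 the direction was the opposite, at 1986 and 2419.6 against 4086 and 3742, and this log2 difference of -0.83 ± 0.21 had an adjusted p of 0.15. TPM1 was the 1 member under an unadjusted p of 0.05 in that comparison.

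TPM2 (ENSG00000198467.16, chr9:35681992-35690056), a tropomyosin abundant in muscle, was the tropomyosin most altered by siTP63 in KYSE180. Its values fell from 7943 and 5548 to 2159 and 1646, a log2 change of -1.82 ± 0.17 (adjusted p = 2.0e-09), and it stayed called lower in all 12 alternatives, with changes of -2.07 to -1.29. In TE6, TPM2 was much scarcer, at 66.8 and 56.8 with siCont and 53.1 and 37.0 with siTP63 (log2 difference -0.47 ± 0.24, adjusted p = 0.13). The response in KYSE180 was lower than that in TE6 by 1.35 ± 0.26 on the log2 scale (adjusted p = 3.0e-04). TPM2 did not share the siBRDT pattern of TPM4. With siBRDT it was at 1635, 1683 and 1476 against 1551, 1448 and 1225 in KYSE180, where the groups overlapped, and at 82.0 and 71.7 against 66.8 and 56.8 in TE6. With BRDT-OE it was at 586, 580.2 and 657 against 581, 573 and 732 (log2 difference -0.04 ± 0.11, adjusted p = 0.76).

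The TPM2 level also differed between both sets of KYSE180 controls. In the siTP63 experiment siCont libraries had a mean TPM2 value of 2682 per kb of exon, and in the siBRDT experiment 559.8 per kb, although both are labelled as siCont in this line. Other genes also differed between these control sets. Normalised siCont means in the siBRDT and siTP63 experiments were 6485 and 2045 for ACTN1, 33.4 and 115 for TAGLN, and 9900 and 2804 for TP63. TPM4 was closer, at 3811 and 3464. These means come from separately normalised tables and were not tested against each other.

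TPM3 (ENSG00000143549.22, chr1:154155308-154194648), a widely expressed tropomyosin, was moderately abundant in each library. It was at 4273, 4093 and 3997 with siBRDT against 4713, 4594 and 4545 in KYSE180 and at 2150.3 and 2506 against 2762 and 2783 in TE6. BRDT-OE gave 9476, 9734 and 9669 against 6586, 7546 and 7231, with all 3 BRDT-OE libraries above the controls (log2 difference 0.44 ± 0.07, adjusted p = 6.5e-04, under the fold-change limit). With siTP63 it was lower in all libraries of KYSE180 (4359 and 4207 against 6001 and 5649.9) and TE6 (2228 and 2379 against 2762 and 2783). The log2 differences were -0.44 ± 0.15 (adjusted p = 0.012) and -0.27 ± 0.10 (adjusted p = 0.043), and neither reached the fold-change limit. In KYSE180 this sign turned to 0.08 with equal read totals. The KYSE150 values were 5812 and 5076 against 6975 and 8277 (-0.48 ± 0.24, adjusted p = 0.35).

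To set the 4 tropomyosin genes side by side, each value was divided by the summed length of the gene's exons and expressed as a share of the summed value per kb. These shares compare genes within a library and do not move with library scaling. Tropomyosin genes resemble each other in sequence, so reads could be split between them in a way the counts do not show. In KYSE180, TPM4 made up 43.8% ± 1.52 (SD, n = 3) with siCont and 18.8% ± 0.77 with siBRDT, while TPM2 made up 29.6% ± 2.17 and 48.0% ± 1.26. In TE6, the TPM4 share was 53.0% ± 0.16 (SD, n = 2) with siCont, 19.9% ± 2.06 with siBRDT and 41.9% ± 1.74 with siTP63. TPM3 had the largest share in TE6 siBRDT libraries, at 48.5% ± 0.54. With BRDT-OE the TPM4 share was 60.5% ± 0.88, above the 51.4% ± 1.78 of the controls. Under siTP63 in KYSE180 the TPM4 share was 35.0% ± 3.38 against 18.6% ± 3.94, while the TPM2 share was 37.3% ± 4.60 against 64.8% ± 5.98. In KYSE150 with siTP63 it was 40.7% ± 8.87 against 37.2% ± 5.27. In the siTP63 experiment in KYSE180, the summed value per kb of the 4 genes was 4108 ± 660.0 with siCont and 2017 ± 138 with siTP63. As normalised in the table, the higher TPM4 share there went with a lower TPM2 value and without a higher TPM4 value. With equal read totals TPM4 was higher too, by 0.43 on the log2 scale. TPM2 stayed lower in all 12 alternatives.

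**Figure D2:**
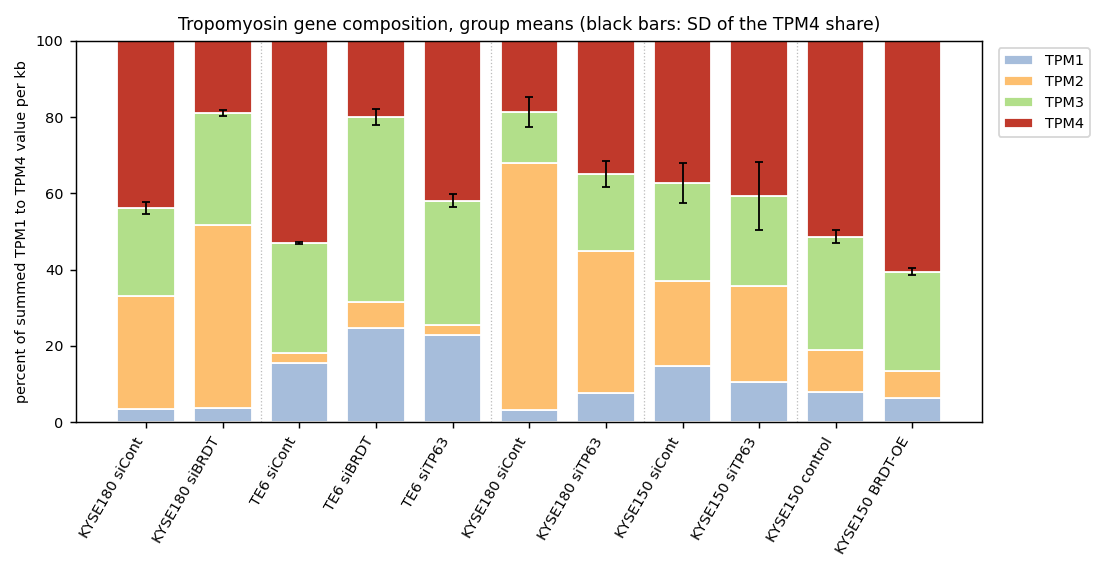
Share of each tropomyosin gene in the summed TPM1 to TPM4 value per kb (percent, y axis) as group means over 2 or 3 libraries, with black bars for the SD of the TPM4 share. The TPM4 share is 43.8% with siCont and 18.8% with siBRDT in KYSE180, 53.0% and 19.9% in TE6, and 51.4% in the control and 60.5% in the BRDT-OE libraries of KYSE150.

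ACTN1 (ENSG00000072110.16, chr14:68874128-68979440) was the member whose profile most resembled that of TPM4. This alpha-actinin had values of 6126, 6567 and 6761 with siCont and 3408, 3843 and 3865 with siBRDT in KYSE180, and 4119 and 3932 against 1786 and 2362 in TE6. The log2 differences were -0.81 ± 0.07 and -0.97 ± 0.12. In the BRDT-OE experiment it rose from 6292, 6462 and 5605 to 9459.6, 9546 and 9245, a log2 change of 0.62 ± 0.07 (adjusted p = 8.5e-05) that stayed called in all 14 alternatives.

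With siTP63, ACTN1 moved in opposite directions in KYSE180 and TE6. In TE6 it fell from 4119 and 3932 to 2315 and 2441 (log2 change -0.76 ± 0.12, adjusted p = 2.5e-04). In KYSE180 it was higher, at 2849 and 2929 against 2090.4 and 1999, with a log2 difference of 0.50 ± 0.14 (adjusted p = 0.0034) that lay just under the fold-change limit and was called in 7 of 12 alternatives. The responses differed by 1.26 ± 0.13 on the log2 scale (adjusted p = 9.1e-07), and in the 14 alternatives by 1.22 to 1.79. In KYSE150, libraries with siTP63 had 3661 and 2470.1 against 2538 and 3401 with siCont, so that the groups overlapped (0.03 ± 0.28, adjusted p = 0.97).

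ACTN4 (ENSG00000130402.14, chr19:38647649-38731589), the second non-muscle alpha-actinin, did not move with ACTN1 in KYSE180 siBRDT libraries. It was at 5533, 6224 and 6109 against 5527, 6134 and 5979, so the groups overlapped. The ACTN1 share of the summed alpha-actinin value per kb was 49.4% ± 0.69 with siCont and 35.5% ± 0.34 with siBRDT. In TE6, ACTN4 was at 2282 and 3163 with siBRDT against 3928 and 3716 (log2 difference -0.51 ± 0.13, and -0.27 without siBRDT replicate 1).

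ACTN4 rose with siTP63 in KYSE180, from 5200.0 and 4569.8 to 7662 and 7691 (log2 change 0.66 ± 0.15, adjusted p = 6.2e-04), and stayed called in all 12 alternatives. In TE6 it was at 4129 and 4146 against 3928 and 3716 (0.11 ± 0.13, adjusted p = 0.48), and the lines differed by 0.54 ± 0.14 (adjusted p = 0.0034). BRDT-OE raised ACTN4 from 9064, 9152 and 7302 to 12082, 12107 and 12087, a log2 change of 0.52 ± 0.09 (adjusted p = 9.9e-04). That change sat at the fold-change limit and was not called in 5 of 14 alternatives, among them both rescalings (0.42 and 0.39) and the fit without control replicate 3, the lowest control (0.41). KYSE150 libraries had 6053 and 5990.3 with siTP63 against 6075 and 5630.3 (0.04 ± 0.22, adjusted p = 0.94).

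TAGLN2 (ENSG00000158710.15, chr1:159918107-159925507), the transgelin of epithelial and other non-muscle cells, had the highest value per kb of the 10 genes in each of the 11 groups, with group means from 1870.4 to 5882. In KYSE180 it was at 3894, 3555 and 3380.3 with siBRDT against 5168, 5068 and 4773 (log2 difference -0.47 ± 0.07). In TE6 it was at 5289 and 6788 with siBRDT against 7042 and 6858. With BRDT-OE it was at 7933, 7712 and 8220.4 against 5917, 6092 and 6715 (0.35 ± 0.07, adjusted p = 0.0024, under the fold-change limit). None of its siTP63 differences passed the test. They were -0.28 ± 0.16 in KYSE180 (adjusted p = 0.13; 0.25 with equal read totals), -0.13 ± 0.11 in TE6 (adjusted p = 0.34) and 0.27 ± 0.25 in KYSE150 (adjusted p = 0.61).

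TAGLN (ENSG00000149591.17, chr11:117199370-117207464), the smooth muscle transgelin, was scarce by comparison, at 0.096% to 0.706% of the summed transgelin value per kb in the group means. In KYSE180 siBRDT libraries had 18.1, 15.1 and 10.4 against 30.6, 30.2 and 39.2 with siCont, from 12 to 40 reads each (log2 difference -1.17 ± 0.26). TE6 siBRDT libraries had 22.7 and 20.3 against 19.3 and 18.9 (0.16 ± 0.33). Under siTP63 in TE6, TAGLN rose to 29.2 and 44.4, a log2 change of 0.88 ± 0.33 (adjusted p = 0.039) that rested on 22 to 44 reads per library and was lost in 5 of 13 alternatives, with an adjusted p of 0.29 without siTP63 replicate 2, 0.13 and 0.15 without siCont replicate 1 or 2, and 0.012 to 0.29 over all. In KYSE180 siTP63 libraries had 161 and 157 against 112 and 118 (0.47 ± 0.19, adjusted p = 0.034, under the fold-change limit). KYSE150 libraries had 55.7 and 117 with siTP63 against 179.7 and 114, with overlapping groups (-0.82 ± 0.44, adjusted p = 0.39). BRDT-OE libraries had 57.6, 78.7 and 75.9 against 56.0, 29.2 and 52.6, and this difference of 0.65 ± 0.25 just missed the threshold (adjusted p = 0.050, range 0.016 to 0.16 over 14 alternatives). TAGLN overlaps PCSK7 on the opposite strand, and ACTN4 likewise overlaps CAPN12. Whether the authors' counting used strand is not given in the sources used here, so reads of such partners may be mixed.

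MYL9 (ENSG00000101335.10, chr20:36541497-36551447) was nearly absent. It had 0 to 35 reads per library, and 0 reads in 11 of the 26 libraries, which allows up to 3 reads each by counting error. Only the siTP63 experiment in KYSE180 passed the filter on low values, with values of 26.8 and 21.5 against 14.2 and 13.3 (log2 difference 0.76 ± 0.39, adjusted p = 0.092). Values elsewhere ranged from 0 to 14.9. Of the TE6 siBRDT libraries replicate 1 had 12 reads and replicate 2 none. Replicate 1 also had 10 reads of MYOCD, 8 of PECAM1, 7 of PDGFRB and 7 of ACTG2, and replicate 2 had 0 of each. It was the siBRDT library with the lower TPM4 value (354 against 485), the lower ACTA2 value (15.1 against 41.8) and the higher TPM2 value (82.0 against 71.7). The cause was not tested. MYL9 lies opposite DLGAP4-AS1, and its close relatives MYL12A and MYL12B could share reads with it.

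ACTA2 (ENSG00000107796.13, chr10:88935074-88991339) was scarce too, at 8 to 194 reads per library, but its groups stood apart in 2 of the 3 BRDT experiments. In KYSE180 it was at 49.0, 41.7 and 46.1 with siBRDT against 132, 147 and 119.6 with siCont (log2 difference -1.52 ± 0.14). BRDT-OE in KYSE150 lowered it as well, from 64.1, 27.4 and 52.6 to 15.5, 15.2 and 11.2, a log2 change of -1.64 ± 0.32 (adjusted p = 0.0017) that was called in all 14 alternatives. ACTA2 was lower both with less BRDT in KYSE180 and with more BRDT in KYSE150. In TE6 the siBRDT libraries differed widely, at 15.1 and 41.8 against 51.0 and 40.5, and the groups overlapped.

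Under siTP63 in KYSE180, ACTA2 fell from 80.2 and 105 to 61.4 and 50.8 (log2 change -0.70 ± 0.24, adjusted p = 0.013). This call was lost in 6 of 12 alternatives, with adjusted p-values up to 0.52, which was the value with equal read totals. It was 0.072 without siCont replicate 2 and 0.16 without siTP63 replicate 2. In TE6 the siTP63 values were 44.5 and 59.2 (0.17 ± 0.39, adjusted p = 0.74), and in KYSE150 they were 15.8 and 19.96 against 16.3 and 14.1 (0.21 ± 0.41, adjusted p = 0.83). ACTA2 overlaps STAMBPL1, FAS and ACTA2-AS1 on the opposite strand, and the actin genes resemble each other closely, so its low counts are uncertain. The defining smooth muscle markers DES, ACTG2 and MYOCD were at or near 0 in every library.

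**Figure D3:**
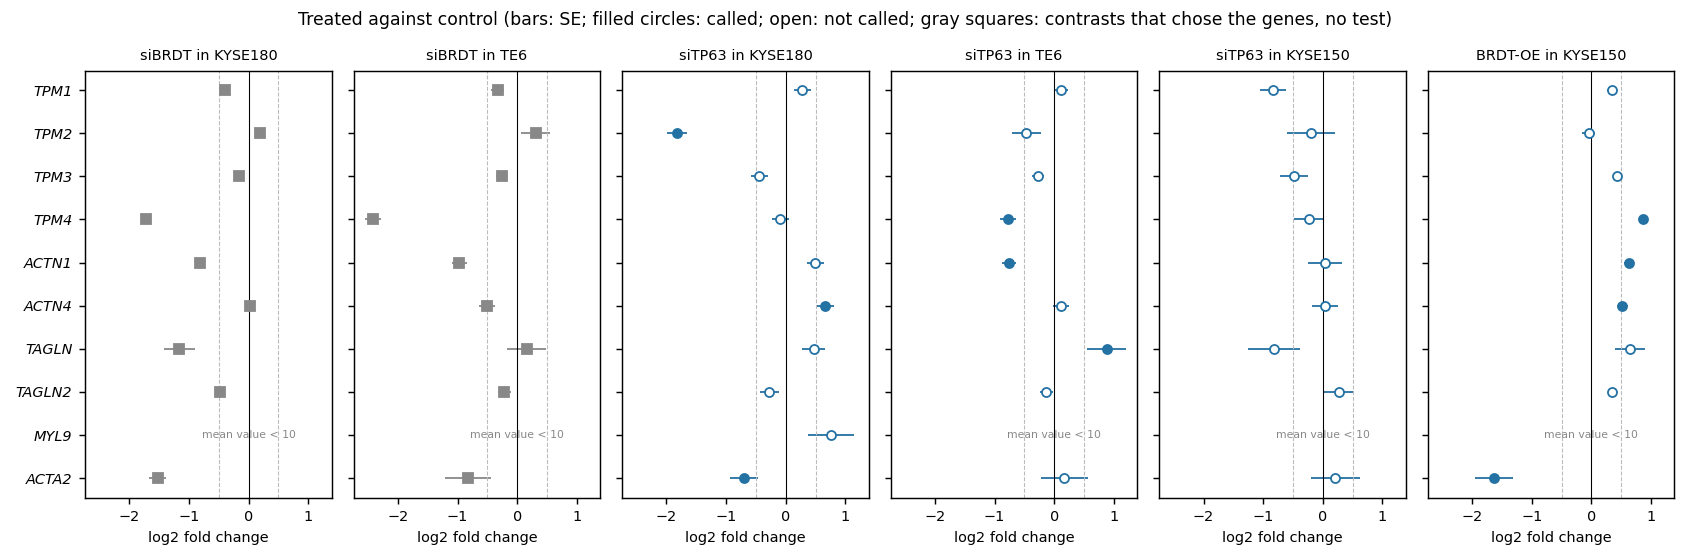
Log2 fold change (treated minus control, x axis) of each gene in the 6 comparisons, with bars for the SE and dashed lines at the limit of 0.5. Gray squares mark the siBRDT comparisons that chose the genes and carry no test, filled circles pass both thresholds and open circles do not, and MYL9 has no value where its mean was under 10. TPM4 and ACTN1 lie left of 0 with siBRDT and with siTP63 in TE6, and right of 0 with BRDT-OE.

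Counted together, 3 of 9 tested members were called higher and 1 lower under BRDT-OE, where 26.5% of all genes were called (10.5% higher, 16.0% lower). The median log2 change of the members was 0.44, beside 0.02 over all genes. With siTP63 in KYSE180, 1 of 10 was called higher and 2 lower, where 49.3% of all genes were called (23.6% higher, 25.7% lower), and the median was 0.09 beside 0.00 over all genes. Rescaling moved all genes in that comparison, by 0.19 with equal upper quartiles and by 0.52 with equal read totals, where 5 members were higher and 1 lower. With equal read totals more of all genes were called higher and fewer lower too, as given below. With siTP63 in TE6, 1 of 9 was called higher and 2 lower, where 38.9% of all genes were called (18.3% higher, 20.6% lower; median -0.13 beside -0.01). With siTP63 in KYSE150, limma called 0 of 9 members and 0.0% of all 12335 genes, while 17.8% of all genes and 1 member had an unadjusted p under 0.05. EdgeR and DESeq2 called 0 members there too. With siBRDT, where the same thresholds serve only to describe the chosen genes, 4 of 9 members were past them and lower in KYSE180, where 30.3% of all genes were past them (14.5% higher, 15.8% lower), and 3 of 9 in TE6, where 33.7% were (15.6% higher, 18.1% lower). These last counts follow from how the genes were chosen.

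In the KYSE150 siTP63 experiment, same-numbered libraries deviated from their groups in opposite directions. TPM2, for example, had 1938 and 1188 with siCont and 938 and 1861 with siTP63. Over all genes the deviations of same-numbered libraries from their group means correlated at -0.70. A limma fit with the numbers crossed, chosen after the data were seen, called 2 members lower, TPM1 (adjusted p = 1.0e-08) and TAGLN (adjusted p = 8.6e-04). In that fit 14.4% of all genes were called lower. The crossing was picked from the same deviations that it removes, so these p-values only describe that fit and are not a valid test.

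The response to siTP63 was also compared directly between KYSE180 and TE6. The depletion was not equal, as the log2 change of TP63 was -1.70 ± 0.14 in KYSE180 and -4.45 ± 0.12 in TE6. The part of this inequality in the contrast was not tested. The TE6 side of this contrast rests on the siCont libraries that helped to choose the genes, so the contrast is not independent of that choice. Of 9 members, 3 were higher in KYSE180 than in TE6 (ACTN1, TPM4 and ACTN4) and 2 lower (TPM2 and ACTA2), where 59.4% of 12711 genes differed (28.8% higher, 30.6% lower). The ACTA2 difference of -0.88 ± 0.34 (adjusted p = 0.035) was lost in 8 of 14 alternatives, with adjusted p-values of 0.014 to 0.40, and it missed the threshold without KYSE180 siCont, KYSE180 siTP63, TE6 siCont or TE6 siTP63 replicate 2 (0.11, 0.13, 0.13 and 0.14). TPM1, TPM3, TAGLN and TAGLN2 differed by -0.41 to 0.16, all above the threshold of adjusted p.

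**Figure D4:**
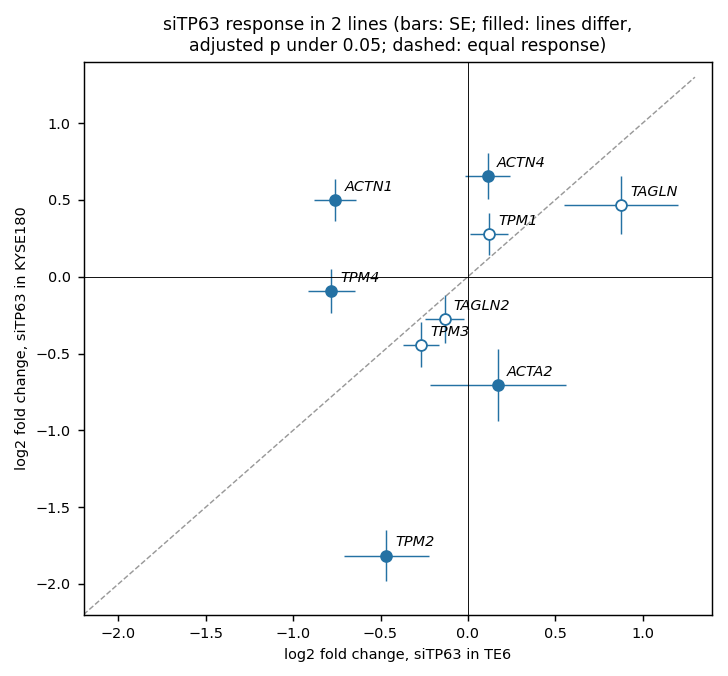
Log2 fold change with siTP63 in KYSE180 (y axis) against TE6 (x axis) for the 9 members tested in both, with bars for the SE. Filled points differ between the lines at an adjusted p under 0.05 and the dashed line marks equal responses. ACTN1 lies at -0.76 in TE6 and 0.50 in KYSE180, and TPM2 at -0.47 and -1.82.

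A list of 50 other actin cytoskeleton genes was read by role. Under BRDT-OE, 10 of the 42 tested were called higher and 2 lower (10.5% and 16.0% of all genes), with a median log2 change of 0.29. The cytoplasmic actins were the clearest, as both were higher in all 3 libraries. ACTG1 rose from a mean of 15475 ± 1441 (SD, n = 3) to 56705 ± 488 (log2 change 1.88 ± 0.09, adjusted p = 6.5e-07) and ACTB from 52482 ± 4576 to 129422 ± 3663 (1.31 ± 0.10, adjusted p = 6.3e-06). Of the genes for actin cross-linking and filament binding 3 of 11 were higher and 1 lower, of focal adhesion genes 2 of 7 were higher, and of non-muscle myosin II genes 1 of 7 was higher and 1 lower. MYH14, a non-muscle myosin heavy chain, fell from 552 ± 88.1 to 157 ± 19.7 (-1.80 ± 0.13, adjusted p = 6.4e-06), and SYNPO, which encodes the stress fiber protein synaptopodin, fell from 276 ± 74.1 to 80.2 ± 6.34 (-1.74 ± 0.18, adjusted p = 3.4e-05). None of the 3 tested genes of the SRF pathway was called.

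With siTP63 in KYSE180, 14 of 45 of these genes were called higher and 6 lower (23.6% and 25.7% of all genes). With equal upper quartiles the counts were 18 and 3, and with equal read totals 25 and 1. These rescalings also moved the median of all genes up, by 0.19 and 0.52. The counts after rescaling are therefore not to be set beside 23.6% and 25.7%. Calls over all genes with equal read totals are given below. CALD1 (caldesmon, which binds actin together with tropomyosin) rose from 53.2 ± 1.77 to 185 ± 12.3 (log2 change 1.78 ± 0.20, adjusted p = 6.5e-08), and VCL (vinculin, of focal adhesions) from 1002 ± 33.5 to 2789 ± 447 (1.47 ± 0.15, adjusted p = 5.8e-09). PDLIM7, a LIM protein of stress fibers, fell from 1404 ± 63.2 to 605 ± 46.7 (-1.21 ± 0.14, adjusted p = 7.6e-08). MYL6, the essential light chain of myosin II, fell from 27947 ± 3280 to 15031 ± 2028 (-0.90 ± 0.18, adjusted p = 1.7e-04).

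With siTP63 in TE6, 6 of 41 were called higher and 9 lower, shares near the 18.3% and 20.6% of all genes. The myosin light chain gene MYL12A rose from 3603 ± 93.9 to 6936 ± 129 (log2 change 0.94 ± 0.09, adjusted p = 4.4e-06). The myosin heavy chain gene MYH10 fell from 2273 ± 83.2 to 773 ± 46.9 (-1.56 ± 0.13, adjusted p = 1.2e-06), and the formin gene DIAPH3 from 334 ± 43.8 to 118 ± 6.23 (-1.48 ± 0.18, adjusted p = 2.7e-05). Of the 7 non-muscle myosin II genes 4 were higher and 2 lower. In KYSE150 with siTP63, none of 40 was called, and 7 had an unadjusted p under 0.05.

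With siBRDT, 11 of 44 of these genes were past the thresholds and lower in KYSE180 and none was higher (15.8% and 14.5% of all genes), and in TE6 14 of 41 were lower and 1 higher (18.1% and 15.6% of all genes). These counts come from the comparisons that chose the members and are a description. In KYSE180 the filament cross-linker FLNA was at 4862 ± 497 against 8211 ± 508, and TMOD3, which caps the pointed ends of tropomyosin-coated filaments, at 1085 ± 72.1 against 1807 ± 70.3. In TE6, TMOD3 was at 356 ± 1.56 against 962 ± 109. PDLIM1, which encodes a LIM protein of stress fibers, was higher in TE6, at 2329 ± 205 against 1421 ± 148. In both lines ACTB and ACTG1 were not past the thresholds with siBRDT.

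**Figure D5:**
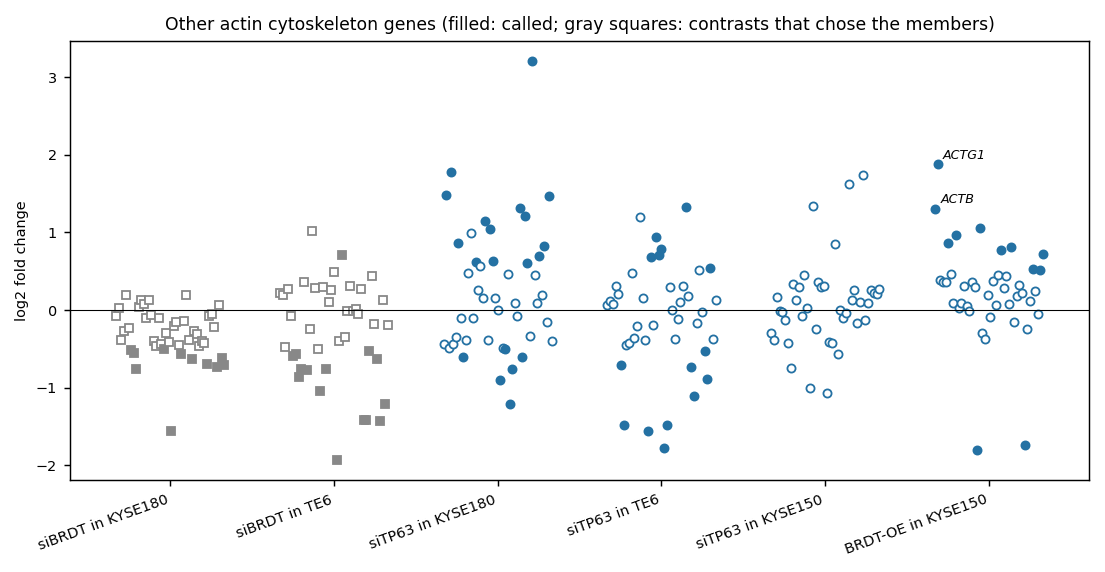
Log2 fold change (treated minus control, y axis) of the tested genes among 50 other actin cytoskeleton genes in the 6 comparisons, 1 point per gene, filled where both thresholds are passed, with gray squares for the siBRDT comparisons. ACTG1 (1.88) and ACTB (1.31) lie above the other genes with BRDT-OE.

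Finally, the genes whose profile was most like that of TPM4 were listed over the 26 libraries, with values centred within each table. Among 11336 other genes the highest Pearson correlations belonged to EXT2 (0.96), PLS3 (0.95), FBXO21 (0.94), PPP4R1 (0.94) and UBE2N (0.94). PLS3 encodes the actin-bundling protein plastin 3. Of the members ACTN1 came first, at rank 84 (r = 0.85), followed by TAGLN2 at rank 576 (0.68), TPM1 at 1005 (0.59), TPM3 at 1374 (0.53), ACTN4 at 1628 (0.49), TAGLN at 2210 (0.42) and ACTA2 at 2607 (0.37). TPM2 was at -0.22. These points share libraries and siRNAs, and the siBRDT libraries that chose the genes are among them, so the ranks only describe the profile. PLS3 and FBXO21 had log2 differences of -1.01 ± 0.06 and -1.82 ± 0.07 with siBRDT in KYSE180 and of -1.80 ± 0.11 and -1.91 ± 0.13 in TE6. With BRDT-OE the differences were 0.25 ± 0.06 and 0.33 ± 0.08.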

How the data were processed

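RNA-seq of 26 libraries from 3 ESCC cell lines was analysed as 5 tables of 26485 gene symbols. Per the study's methods and processing notes, alignment to hg38 by the authors used STAR (2.6.0), gene counting HTSeq (0.11.2) and normalisation DESeq2 (1.24.0). The deposited signal is thus the count of a gene over the size factor of its library, with factors estimated within each table. Whole reads were recovered for 100% of values (tolerance 0.001 reads), and a 0 is compatible with 3 reads (0.155 to 0.396 RPM). Such limits cover counting error only. Counting options, including strand, are not given in the sources used here.

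Groups were taken from the labels. Tests used limma 3.58.1 (R 4.3.3; lmFit, eBayes with trend) on log2(value + 1), over genes with a mean value of at least 10, fitted per table. The 3 TE6 groups shared 1 fit. The pseudocount shrinks differences of genes with low values. Genes were called at a Benjamini-Hochberg adjusted p (over all genes) under 0.05 where the log2 fold change reached 0.5 in size. The responses of KYSE180 and TE6 to siTP63 were compared as a limma contrast, at an adjusted p under 0.05. Values per kb used the union of exons in GENCODE release 44. The fit was tested on simulated data with independent libraries, a setting that leaves out the opposite deviations seen in the KYSE150 siTP63 experiment.

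The members and lists were chosen with earlier results of these data known. Named were all members, BRDT and TP63, the 5 genes most like TPM4, and per comparison up to 2 called genes with the largest rise and 2 with the largest fall among 50 other actin cytoskeleton genes with a mean value of at least 100. Of the genes this rule names, 2 are not reported here. Markers named are fixed lists for squamous, smooth muscle, fibroblast, and blood and vessel cells. Alternatives were a pseudocount of 0.1, no filter, equal upper quartiles, edgeR 4.0.16 and DESeq2 1.42.0 on recovered reads, a replicate block, no fold-change limit, TE6 fits with only the groups compared, each library left out, other gene lengths and rank correlation. Equal read totals and a crossed block were added after the data were seen. Same-numbered libraries did not deviate together in every pair (r of 0.15, 0.0047 and 0.18 for siBRDT in KYSE180, and 0.015, 0.098 and 0.037 for BRDT-OE), so the numbers were not taken as pairs.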

Additional observations from a re-analysis of the deposited data

Results flagged for a closer look

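The siTP63 response differed between KYSE180 and TE6 by the limma contrast in 5 of 9 members tested, where 59.4% of all genes differed. The differences of log2 fold changes, KYSE180 minus TE6, were 1.26 for ACTN1, 0.69 for TPM4, 0.54 for ACTN4, -1.35 for TPM2 and -0.88 for ACTA2. The ACTA2 difference was lost in 8 of 14 alternatives. The TE6 side rests on control libraries that helped to choose the genes. TP63 was also depleted less in KYSE180 (log2 change -1.70) than in TE6 (-4.45), and the part of this was not tested.

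In 2 members every siTP63 library lay on 1 side of its controls in KYSE180 and in TE6, and on the other side in KYSE150. For TPM1 the log2 fold change was 0.28 in KYSE180, 0.12 in TE6 and -0.83 in KYSE150. For TAGLN2 it was -0.28 in KYSE180, -0.13 in TE6 and 0.27 in KYSE150. These differences from KYSE150 were not tested. In normalised values TAGLN was lower in every siBRDT library of KYSE180 (log2 difference -1.17 ± 0.26) and higher in every siBRDT library of TE6 (0.16 ± 0.33). The TE6 values rested on 21 and 17 reads with siBRDT against 22 and 22 with siCont, and the difference between the lines was not tested either.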

How the results depend on the processing

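With siTP63 in KYSE180, the members called higher went from 1 to 4 with equal upper quartiles, 5 with equal read totals, 3 with edgeR, 2 with DESeq2 and 3 with no fold-change limit, and those called lower from 2 to 1 with no filter, equal upper quartiles, equal read totals and DESeq2. Leaving out a library gave 1 to 2 higher and 1 to 2 lower. Over all genes 3292 were called higher and 3577 lower, and with equal read totals 6781 and 1451. TPM3 was then at 0.081, TPM4 at 0.43 and TAGLN2 at 0.25, and TPM4 was at 0.10 with equal upper quartiles. With siTP63 in TE6, the 1 member called higher was lost (0) with no filter and DESeq2, and leaving out a library gave 0 to 1. ACTA2 ranged from -0.031 (without siTP63 replicate 2) to 0.37.

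In the contrast of both lines, 6 members were higher with equal read totals, and 1 instead of 2 was lower with no filter, equal upper quartiles, equal read totals and edgeR. Leaving out a library gave 1 to 2 lower. With equal read totals TPM3 (0.36), TAGLN (0.12) and TAGLN2 (0.39) turned, and TAGLN2 also with equal upper quartiles (0.0076). Over all genes 3661 were higher and 3894 lower, and with equal read totals 6206 and 1968. With no fold-change limit, siBRDT in KYSE180 had 7 members lower and BRDT-OE 6 higher. Over all genes BRDT-OE called 1343 higher, and 890 with equal upper quartiles, 792 with equal read totals and 3326 with no fold-change limit, which also took the lower ones from 2043 to 3195. Without that limit, counts moved for siBRDT in KYSE180 from 1972 and 2143 to 3893 and 4044. Without siCont replicate 2, siBRDT in TE6 had 1483 genes lower instead of 2419. The upper-quartile and read-total scalings moved the median gene by -0.098 and -0.12 in BRDT-OE, and read totals moved it by -0.10 with siBRDT in TE6 and by 0.10 with siTP63 in KYSE150. On recovered reads edgeR called 2082 genes higher and 2052 lower with siBRDT in KYSE180, 2174 and 2330 with siBRDT in TE6, 3609 and 3376 with siTP63 in KYSE180, 2518 and 2785 with siTP63 in TE6, and 1230 and 2185 with BRDT-OE. The cause of these differences was not tested.

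With siTP63 in KYSE150, limma called no gene, edgeR 0, DESeq2 201 higher and 261 lower, no filter 27 and 18, and leaving out a library 108 to 182 and 77 to 177. Without siCont replicate 1 or siTP63 replicate 1, TPM2 was at 0.15 and 0.29 and ACTN1 at -0.18 and -0.25. Over all 4 libraries left out, TPM2 ranged from -0.69 to 0.29, ACTN1 from -0.25 to 0.32 and ACTN4 from -0.013 (without siCont replicate 2) to 0.097. TPM2 with BRDT-OE was at 0.072 without control replicate 3. The replicate block gave 89 genes higher and 48 lower with siTP63 in KYSE150. With the crossed replicate block it was 1626 and 1774, and 2 members were lower. Elsewhere the block kept 0 higher and 4 lower members with siBRDT in KYSE180, and with BRDT-OE it called 4 higher instead of 3 by adding TAGLN (adjusted p = 0.034). In the other comparisons it changed no call of a member. Deviations of same-numbered libraries correlated at -0.084 for siBRDT in TE6, 0.047 for siTP63 in KYSE180 and 0.028 for siTP63 in TE6.

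By the longest transcript, the TPM4 share was 17.8% instead of 18.8% in KYSE180 siBRDT libraries and 52.1% instead of 53.0% in TE6 siCont libraries. The TPM2 and TPM3 shares given above moved more with this length, TPM2 upward and TPM3 downward. TPM3 still had the largest share in TE6 siBRDT libraries. By Spearman correlation 3 of the 5 genes most like TPM4 stayed in the first 5. Depth limits MYL9 in all experiments, and TAGLN and ACTA2, at 8 to 210 reads per library.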
